A study of Mus musculus with 6 samples.

Results

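The set described here holds 40 mouse genes that work in germ cells or in meiosis. They were chosen by name, with earlier results of these data known. Their H3K9me3 was read from the deposited table of regions, taking every region whose assigned gene is one of the 40. Of the 40 genes, 36 had at least 1 region, and these held 259 of the 202553 regions in the table. Piwil2, Hormad1, Tex14 and Rec8 had no region and are reported as unmarked. The series profiled H3K9me3, the histone H3 lysine 9 trimethylation of heterochromatin, by CUT&Tag in frozen quadriceps femoris, a thigh muscle. In CUT&Tag a transposase bound to the antibody cuts and tags the DNA beside the marked nucleosomes. The 3 wild-type libraries (genotype Prr14-WT, replicates 3, 4 and 8) were set against 3 knockout libraries (genotype Prr14-KO, replicates 4, 5 and 7), each made with the same antibody. The series title places Prr14, which encodes a protein that ties heterochromatin to the nuclear lamina, in mechanotransduction and myofiber identity. The labels name no age, sex, strain, other allele or treatment, and do not say how the knockout was made or whether each library is a different mouse.

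Germ cells express a set of proteins that other cells do not need: PIWI proteins and their Tudor-domain partners, which silence transposons through piRNAs, and the proteins that pair, break and recombine chromosomes in meiosis. In mouse somatic cells many of these genes carry repressive marks at CpG-rich promoters, among them DNA methylation and H3K9 methylation. A form of the Polycomb repressive complex 1 that holds MGA, MAX and E2F6 binds such promoters, MGA and MAX at the E-box CACGTG and E2F6 at sites close to GCGGGA. Skeletal muscle holds no germ cells, but it holds fibres, satellite cells, fibroblasts, vessels and blood cells. The libraries are of bulk tissue, so marked cells becoming fewer and less mark per cell cannot be told apart.

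The promoter sequences below are shown because the members with and without H3K9me3 at the start can be compared in them. Each line is the 250 bases before the start of the gene, 5′ to 3′ on the strand of the gene, from RefSeq on GRCm38.p6, with CACGTG and GCGGGA (or its reverse complement TCCCGC) in capitals. The first 5 genes had a region within 1 kb of the start. Sycp1, Mael and Dazl are among the members with the most H3K9me3 there, Sycp3 holds both motifs, and the promoter sum of Mov10l1 had the largest log2 change of the members tested between the genotypes, one that did not pass the test after adjustment. Hormad1 and Rec8 had no region. The windows are chr3:102936101-102936350 for Sycp1, chr1:166238745-166238994 for Mael, chr17:50293621-50293870 for Dazl, chr10:88459337-88459586 for Sycp3, chr15:88982744-88982993 for Mov10l1, chr3:95559427-95559676 for Hormad1 and chr14:55617916-55618165 for Rec8.
Sycp1: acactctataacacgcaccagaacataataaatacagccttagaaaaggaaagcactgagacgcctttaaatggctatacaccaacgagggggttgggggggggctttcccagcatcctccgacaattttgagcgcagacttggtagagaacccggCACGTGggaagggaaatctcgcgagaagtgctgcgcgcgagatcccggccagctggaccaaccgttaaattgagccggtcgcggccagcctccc
Mael: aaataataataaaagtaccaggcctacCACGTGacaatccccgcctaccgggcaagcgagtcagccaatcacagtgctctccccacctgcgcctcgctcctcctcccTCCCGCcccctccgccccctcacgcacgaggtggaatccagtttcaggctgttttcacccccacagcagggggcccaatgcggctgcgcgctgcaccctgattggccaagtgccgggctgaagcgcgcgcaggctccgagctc
Dazl: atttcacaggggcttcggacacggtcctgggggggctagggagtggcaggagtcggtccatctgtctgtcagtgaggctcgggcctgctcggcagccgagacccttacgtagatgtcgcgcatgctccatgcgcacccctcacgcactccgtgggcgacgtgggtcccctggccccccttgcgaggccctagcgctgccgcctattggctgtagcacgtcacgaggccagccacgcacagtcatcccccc
Sycp3: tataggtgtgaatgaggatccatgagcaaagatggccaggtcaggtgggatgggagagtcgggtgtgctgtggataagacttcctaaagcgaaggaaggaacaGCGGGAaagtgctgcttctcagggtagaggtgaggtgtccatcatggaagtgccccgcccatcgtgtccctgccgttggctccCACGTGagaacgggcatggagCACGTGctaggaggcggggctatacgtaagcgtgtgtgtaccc
Mov10l1: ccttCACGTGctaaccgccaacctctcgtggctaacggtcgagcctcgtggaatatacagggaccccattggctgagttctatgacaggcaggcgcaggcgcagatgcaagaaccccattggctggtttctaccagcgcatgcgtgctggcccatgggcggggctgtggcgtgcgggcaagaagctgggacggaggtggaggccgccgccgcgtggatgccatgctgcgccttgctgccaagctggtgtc
Hormad1: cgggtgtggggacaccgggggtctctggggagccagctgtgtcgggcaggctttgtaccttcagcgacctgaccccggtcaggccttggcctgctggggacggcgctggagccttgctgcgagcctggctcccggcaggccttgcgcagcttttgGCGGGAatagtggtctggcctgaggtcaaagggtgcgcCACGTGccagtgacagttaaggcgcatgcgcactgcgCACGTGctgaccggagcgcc
Rec8: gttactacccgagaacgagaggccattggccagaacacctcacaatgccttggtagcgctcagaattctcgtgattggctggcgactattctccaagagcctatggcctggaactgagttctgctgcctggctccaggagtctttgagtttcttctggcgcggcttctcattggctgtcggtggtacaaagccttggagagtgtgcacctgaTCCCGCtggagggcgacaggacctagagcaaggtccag
Dazl shows that a strongly marked start can hold neither motif, and Hormad1 that a start with 2 copies of CACGTG and 1 of GCGGGA can be without a region.

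H3K9me3 lay at the start site of most members. Of the 40, 32 (80%) had a region in a promoter class, which the authors give to regions up to 3 kb from a start, and 29 (72.5%) had a region in the class within 1 kb. Among 21843 other protein-coding genes 6235 (28.5%) had a region within 1 kb, and 8610 (39.4%) one in any promoter class. The gap was narrower for regions assigned to the gene at any distance, which 36 members (90%) and 15783 of the other genes (72.3%) had. Such regions can lie far from the gene. For 8 of the 40 members no region lay in the RefSeq span, the 4 unmarked genes included. Of the 71 regions of Mei4, 40 lay in its span, and of the 20 of Piwil1, 2 did. The fibre genes of the muscle itself, such as actins, myosins and troponins, were a list of 20, of which 6 (30%) had a region within 1 kb: Acta1, Casq1, Eno3, Neb, Ryr1 and Ttn. A list of 47 other germline genes lay between the members and the rest, with a region within 1 kb at 26 (57.8%) of the 45 found in RefSeq. Its highest promoter levels were at Syce3, Rad21l, Sohlh2, Lhx8, Meioc and Henmt1. Measured from RefSeq starts instead of the authors' classes, 24 of the 35 members with a RefSeq promoter sequence (68.6%) had a region overlapping 1 kb on either side, against 4710 of 17456 other protein-coding genes (27.0%). These shares describe the table, and no test was made on them. The members and both lists were chosen with earlier results of these data known, so the shares are not independent of that choice.

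**Figure D1:**
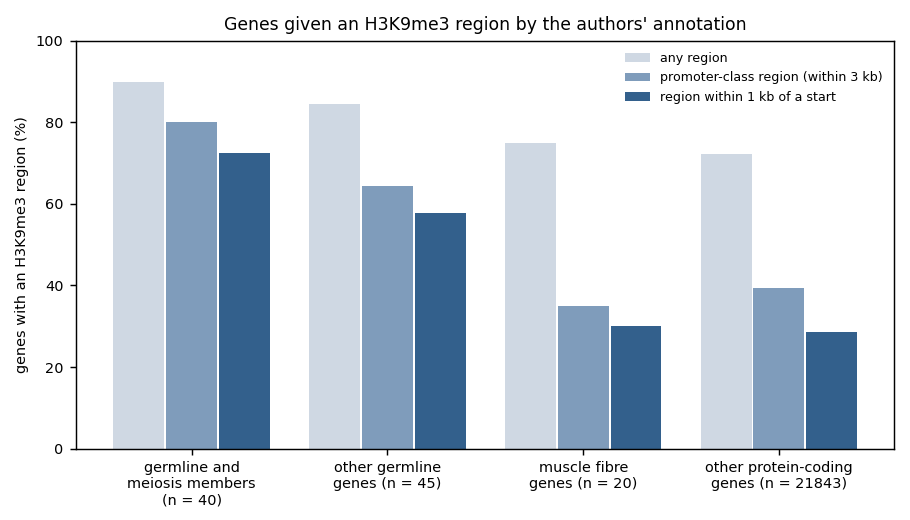
Percent of genes to which the authors' annotation gave any H3K9me3 region, a promoter-class region (up to 3 kb) or a region within 1 kb of a start, for the 40 members, 45 other germline genes, 20 muscle fibre genes and 21843 other protein-coding genes. The bars of the members stay at 90%, 80% and 72.5%, while those of the other protein-coding genes drop from 72.3% to 28.5%.

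The regions of the members were shifted towards promoters. Of their 259 regions, 43 (16.6%) were of a promoter class and 31 (12.0%) lay within 1 kb, against 6.31% and 3.80% of all regions in the table. The others were 122 intron regions, 88 intergenic regions, 5 exon regions and 1 region in a 3′ UTR. An intron region need not lie in the member itself. The 5 intron regions assigned to Nobox and the 10 assigned to Piwil1 all lay outside the RefSeq spans of these genes. For 16 members the promoter classes held over 50% of the counts assigned to the gene, and for Dmc1, Mei1, Stra8, Syce2, Taf7l and Sohlh1 they held all of them. Tdrd7, Hormad2, Meiob and Prdm9 had regions but none in a promoter class. Piwil4, Stra8 and Sohlh1 had promoter-class regions but none within 1 kb.

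The 31 start regions (29 genes) were wide and often alone. Their median width was 608 bp, against 349 bp for the 7659 other regions within 1 kb of a start. Their median level was 7.74 CPM (scaled counts relative to the library total, the mean of the 6 libraries), against 3.39 CPM for the others, and 27 of the 31 lay above the median of all such regions. Per kilobase of region the medians were closer, 12.1 CPM against 9.80 CPM, beside the difference in width. No other region lay within 10 kb for 17 of the 31 (54.8%), against 31.2% of the others. The midpoint was downstream of the start, in the gene, for 24 of the 31 (77.4%), against 64.7%.

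**Figure D2:**
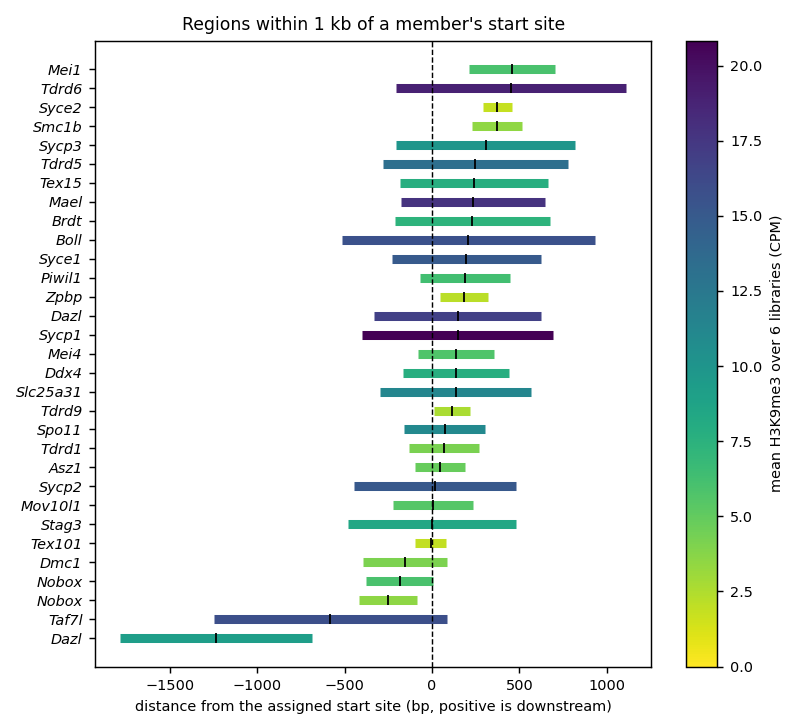
Each bar is a region within 1 kb of a member's start, drawn by its distance from the start that the authors' table assigns (bp, positive into the gene), with a tick at its midpoint and its colour giving the mean H3K9me3 of the 6 libraries in CPM. Most bars cross or begin just past the start, 24 of the 31 midpoints lie downstream, and the darkest bar, Sycp1, is at 20.8 CPM. The lowest Dazl bar has its midpoint at -1234 bp and its nearer end within 1 kb.

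In density, the mean level per kilobase of region, the start regions of Spo11 (23.6 CPM per kb), Mael (21.6), Sycp1 (19.06), Dazl (17.6) and Syce1 (17.5) stood highest in that order. Those of Zpbp (7.85 CPM per kb), Brdt (8.24) and Stag3 (8.78) were among the lowest. The Spo11 region lay at a start given by the authors that is not the RefSeq start. The order of neighbours in that ranking is not resolved by the spread between libraries: the promoter level of Sycp1 alone ran from 14.0 to 25.1 CPM. The values that follow are sums over the promoter-class regions of a gene in scaled CPM, in the order wild-type replicates 3, 4 and 8 and knockout replicates 4, 5 and 7. A library had 4324444 to 4756133 counts over all regions. At the median promoter sum of 37.7 counts per library, counting error limits each single value.

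The 3 genes of germ cell RNA-binding proteins all carried the mark at the start. Dazl, which controls translation in germ cells, had regions at chr17:50293010-50293965 over its start and chr17:50294321-50295418 before it. Its promoter sum was 27.9, 26.7 and 25.1 CPM in the wild type and 29.2, 22.7 and 24.7 CPM in the knockout. Boll, a relative of Dazl that acts in meiosis, had a start region at chr1:55362388-55363833 and a weaker one near another start, and summed to 23.3, 27.4 and 26.8 CPM in the wild type and 22.5, 23.8 and 24.9 CPM in the knockout. Ddx4, the Vasa helicase of germ granules, had its region at chr13:112651862-112652469 and 7.25, 6.09 and 9.15 CPM in the wild type and 9.81, 9.29 and 5.21 CPM in the knockout. Dazl and Boll had the highest promoter sums of the set, each over 2 regions, and in all 3 genes the values of the genotypes overlapped.

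Of the 11 piRNA pathway genes, 10 had a region, 9 a promoter-class region and 8 one within 1 kb. Mael, needed for transposon silencing in testis, had 1 wide region at chr1:166238099-166238921 with 21.5, 14.1 and 16.8 CPM in the wild type and 22.0, 14.5 and 17.7 CPM in the knockout. The Tudor-domain genes differed widely among themselves. Tdrd6, a scaffold of the chromatoid body, had 18.8, 15.4 and 20.9 CPM in the wild type and 18.5, 19.0 and 21.1 CPM in the knockout at chr17:43629156-43630473. That region lay at a start that is not the RefSeq start of Tdrd6. Tdrd5, another Tudor protein of the pathway, had 16.4, 10.4 and 12.6 CPM in the wild type and 17.0, 11.3 and 12.0 CPM in the knockout at chr1:156302573-156303628. Tdrd9, a helicase with a Tudor domain, had 17.9, 17.6 and 17.0 CPM in the wild type and 21.8, 20.2 and 17.4 CPM in the knockout. Most of the Tdrd9 sum came from a region at chr12:111994865-111996424, close to an inner start, and its start region at chr12:111971569-111971777 held only 2.67 CPM. Tdrd1, a partner of PIWI proteins, was lower, with 2.35, 3.04 and 8.09 CPM in the wild type and 3.71, 4.76 and 3.40 CPM in the knockout at chr19:56826152-56826556. Tdrd7 had no promoter-class region.

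The promoter sums of the PIWI genes themselves were below those of Mael and Tdrd6, over shorter regions. Piwil1, the PIWI protein of meiotic and later male germ cells, had 9.17, 5.22 and 5.96 CPM in the wild type and 5.45, 4.53 and 7.70 CPM in the knockout at chr5:128736106-128736620. Piwil4, the nuclear PIWI protein that guides DNA methylation in fetal germ cells, had 4.05, 1.96 and 4.47 CPM in the wild type and 1.53, 3.40 and 4.76 CPM in the knockout in regions beyond 1 kb of its starts. Piwil2 had no region in the gene or assigned to it. Asz1, a mitochondrial protein of the piRNA machinery, had 4.05, 4.13 and 3.83 CPM in the wild type and 6.98, 4.08 and 5.89 CPM in the knockout at chr6:18108858-18109142. Mov10l1, the helicase that feeds precursors into the pathway, had 4.05, 3.91 and 3.19 CPM in the wild type and 7.85, 7.93 and 6.11 CPM in the knockout at chr15:88982687-88983140. Every knockout value of Mov10l1 lay above every wild-type value, and no other promoter sum of the set separated the genotypes. Of all 7320 promoter sums tested, 9.18% separated them, so 1 such member is not beyond the background.

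Among the 3 meiotic cohesin genes Stag3 and Smc1b were marked and Rec8 was not. Stag3 had 7.25, 8.70 and 9.37 CPM in the wild type and 7.41, 6.80 and 10.9 CPM in the knockout at chr5:138280078-138281034. Smc1b had 2.56, 4.78 and 3.41 CPM in the wild type and 4.14, 2.49 and 3.17 CPM in the knockout at chr15:85131448-85131734. Both of these starts lie close to that of another protein-coding gene, Gpc2 at 572 bp from Stag3 and Ribc2 at 141 bp from Smc1b, so the mark there cannot be given to 1 gene of the pair. Tex14, which had no region, shares its start area with Rad51c, at 111 bp from the nearer of its starts. Stra8, the factor that retinoic acid induces to start meiosis, had 2 small regions between 1 and 3 kb from its start and 3.41, 5.44 and 3.83 CPM in the wild type and 1.31, 3.17 and 4.53 CPM in the knockout.

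The synaptonemal complex genes held some of the strongest promoters of the set. Sycp1, the transverse filament that zips paired chromosomes, had 18.3, 24.4 and 22.8 CPM in the wild type and 25.1, 14.0 and 20.4 CPM in the knockout in a region of 1093 bp at chr3:102935398-102936490. This region contains the whole of the Sycp1 window printed above, with its single CACGTG. Sycp2, of the lateral element, had 16.9, 13.0 and 11.9 CPM in the wild type and 18.5, 17.2 and 13.1 CPM in the knockout at chr2:178406941-178407867. Its partner Sycp3 had 12.8, 9.13 and 12.8 CPM in the wild type and 6.98, 13.1 and 4.98 CPM in the knockout at chr10:88459460-88460482. The knockout libraries of Sycp3 were spread widely, with 2 values below all wild-type values and 1 above them. Syce1, of the central element, had 19.8, 24.4 and 22.6 CPM in the wild type and 21.6, 23.6 and 21.1 CPM in the knockout over 3 promoter-class regions, the main one at chr7:140787213-140788068. Syce2, of the same element, stood at the other end with 0.640, 1.96 and 1.70 CPM in the wild type and 0.872, 3.85 and 1.81 CPM in the knockout at chr8:84872487-84872647, the lowest mean promoter level of the set. Of the axis proteins, Hormad1 had no region and Hormad2 was assigned 4 regions of the intron class and 1 intergenic region. The intron-class region at chr11:4483596-4483776 lay outside the Hormad2 span, its midpoint at -42604 bp from the RefSeq start.

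All 7 meiotic recombination genes had a region and 5 had one within 1 kb. Spo11, which makes the double-strand breaks of meiosis, had 10.03, 11.1 and 14.5 CPM in the wild type and 9.59, 13.4 and 7.70 CPM in the knockout in a region of 467 bp at chr2:172979688-172980154. That region lay at a start that is not the RefSeq start of Spo11. Dmc1, the meiotic recombinase, had 10.2, 9.57 and 4.47 CPM in the wild type and 10.2, 5.44 and 6.11 CPM in the knockout, the nearer region being at chr15:79605022-79605506. Both genes had overlapping genotypes. Mei1, needed for break formation, had 8.96, 11.3 and 8.30 CPM in the wild type and 5.67, 8.61 and 9.06 CPM in the knockout. Its start region, at chr15:82070206-82070701, lay near the beginning of the RefSeq span at 82070074. The RefSeq promoter sequence of Mei1 belongs to an inner start, at 82082476. Mei4, a part of the same machinery, had 8.32, 6.52 and 9.58 CPM in the wild type and 8.29, 5.21 and 10.6 CPM in the knockout, and its start region was at chr9:81863629-81864065. These promoter counts were only 2.78% of all counts assigned to Mei4, which had 71 regions across its introns and flanks. Tex15, needed for repair of the breaks and for silencing of transposons, had 8.11, 7.39 and 6.60 CPM in the wild type and 8.72, 6.34 and 9.29 CPM in the knockout at chr8:33516554-33517398. Meiob and Prdm9, the methyltransferase that places recombination hotspots, had only intergenic regions.

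The 4 germ cell transcription factor genes all had a promoter-class region. Taf7l, a testis form of a TFIID subunit on chromosome X, had a single region, at chrX:134474911-134476241, with 17.9, 19.13 and 13.4 CPM in the wild type and 16.1, 15.2 and 13.1 CPM in the knockout. Nobox, a homeobox factor of oocytes, had regions at chr6:43309546-43309929 and chr6:43307321-43307654 with 12.2, 11.7 and 7.88 CPM in the wild type and 7.20, 8.61 and 9.74 CPM in the knockout. Brdt, the testis bromodomain protein, had 8.53, 7.61 and 7.02 CPM in the wild type and 7.20, 7.02 and 6.57 CPM in the knockout at chr5:107330962-107331850. Sohlh1, a basic helix-loop-helix factor of early germ cells, had 4.69, 6.09 and 7.88 CPM in the wild type and 7.20, 5.21 and 5.44 CPM in the knockout in a region between 2 and 3 kb before its start. The genotypes overlapped at each of these 4 genes.

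The testis and sperm proteins were split. Slc25a31, the ADP/ATP carrier of sperm and meiotic cells, had 6.83, 12.2 and 9.15 CPM in the wild type and 12.0, 16.3 and 11.3 CPM in the knockout in a region of 869 bp at chr3:40708555-40709423. Tex101, a surface protein of germ cells, had 1.28, 2.39 and 2.13 CPM in the wild type and 1.09, 1.81 and 2.94 CPM in the knockout at chr7:24676594-24676773, a start that is not its RefSeq start. Zpbp, an acrosome protein, had 1.71, 1.96 and 3.83 CPM in the wild type and 1.96, 1.81 and 1.59 CPM in the knockout at chr11:11462091-11462363. Their promoter sums were the lowest after that of Syce2. Zpbp carried its mark elsewhere, in 20 intron regions, of which the strongest, at chr11:11392061-11393537, reached 22.8 CPM. The strongest member region outside the promoter classes was the 3′ UTR region of Tdrd9 at chr12:112022129-112023776, with 29.1 CPM.

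**Figure D3:**
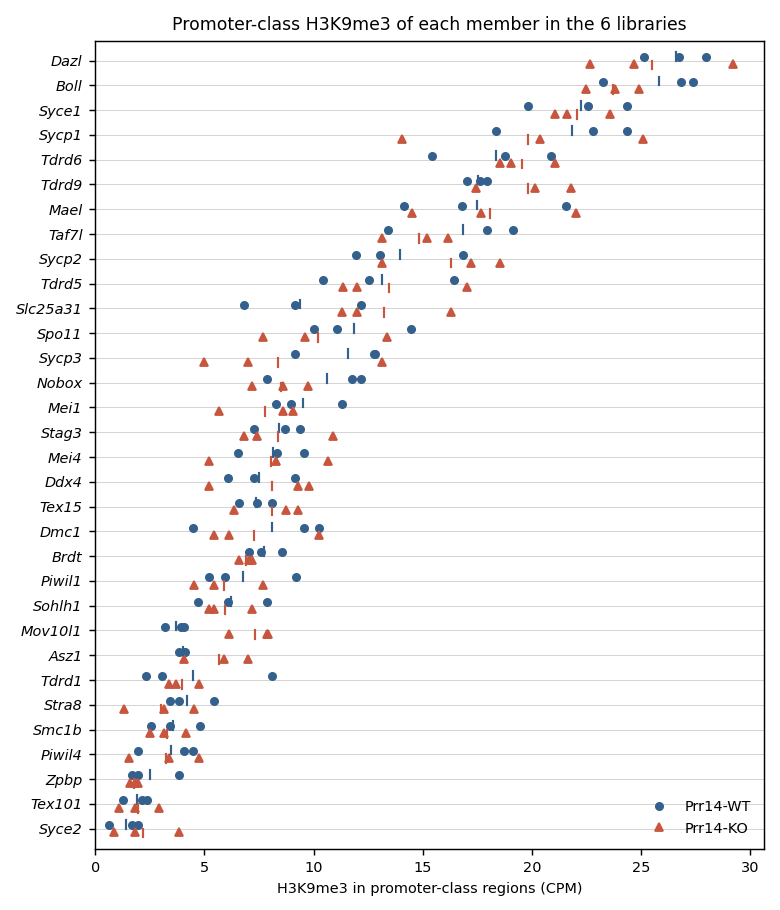
H3K9me3 summed over the promoter-class regions of each of the 32 members that have one (CPM, scaled), with a circle for each of the 3 Prr14-WT libraries, a triangle for each of the 3 Prr14-KO libraries and a short line at the mean of each genotype. Levels run from a mean of 1.81 CPM at Syce2 to 26.1 CPM at Dazl. Mov10l1 is the only gene at which the circles and triangles do not overlap, beside 9.18% of all promoter sums tested.

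The bases before the start were searched for the motifs on both strands in the 35 members with a RefSeq promoter sequence. Piwil2, Spo11, Tex15, Meiob and Tdrd6 had none. CACGTG was in the 250 bases before a start of 16 of the 35 members (45.7%), against 1315 of 17456 other protein-coding genes (7.53%). Among the members it was in 14 of 26 with a region within 1 kb (53.8%) and in 2 of 9 without one (22.2%), the 2 being Hormad1 and Sohlh1. Among other protein-coding genes the share hardly moved with the mark, being 7.75% of the 4916 with a region within 1 kb. The other germline genes held it at 5 of 38 (13.2%). GCGGGA was in 11 of 35 members (31.4%), against 24.1% of the other protein-coding genes. It was in 7 of the 26 members with a region within 1 kb (26.9%) and in 4 of the 9 without one. Other protein-coding genes with a region within 1 kb held GCGGGA at 27.5%, close to the marked members. In the windows of the members no match to CACGTG overlapped a match to GCGGGA. Members were grouped by the authors' classes, while the motifs were read before RefSeq starts. At Mei1 and Tex101 the region was at another start, its midpoint at -12023 and -4633 bp from the start searched. A match to these letters says nothing of binding in muscle.

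**Figure D4:**
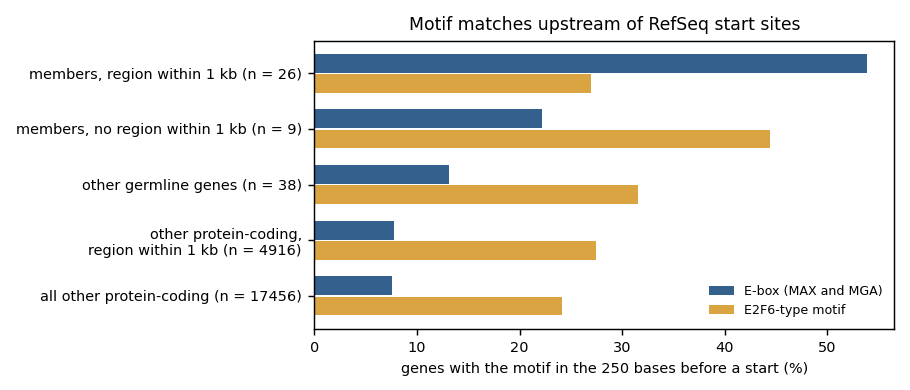
Percent of genes with the E-box CACGTG or the E2F6-type motif GCGGGA, on either strand, in the 250 bases before a RefSeq start, for members with and without a region within 1 kb, other germline genes, and other protein-coding genes. The E-box bar is longest for the 26 marked members, at 53.8%, against 7.53% for all other protein-coding genes, while the bars of the E2F6-type motif run from 24.1% to 44.4%.

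The upstream windows of the members held a median of 14 CpG dinucleotides, against 10 for the other protein-coding genes and 14 for the other germline genes. Members ranged from 4 at Zpbp to 40 at Tdrd5, taking the richest window where a gene has several starts. Across the 26 members with a sequence and a region within 1 kb, the CpG count and the highest promoter level had a Spearman rho of 0.32 and, with log2 levels, a Pearson r of 0.29. This relation is across genes, which share libraries and are not replicates. At Mei1 and Tex101 it pairs a window with a region at another start. Sycp2, among the strongest, had 7 CpG, and Smc1b, among the weakest, had 25.

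The comparison of knockout with wild type asked whether loss of Prr14 goes with gain or loss of the mark at these genes. H3K9me3 does not measure Prr14, so these libraries give no readout of the deletion itself. No member differed at an adjusted p of 0.05 by edgeR's quasi-likelihood test, with Benjamini-Hochberg adjustment over all features, at any of 4 levels. Gene sums add up all regions assigned to a gene, at any distance. At this level 35 of the 36 members passed the filter on low counts and 0 were called, where 0.0393% of the 15265 genes tested were. For sums of the promoter classes 30 of 32 passed and 0 were called, against 0.0137% of 7320 genes. For sums of the other classes 28 of 30 passed and 0 were called, against 0.0514% of 13617 genes. Of the 259 single regions 209 passed and 0 were called, against 0.013% of 153789 regions. With calls this rare in the whole table, a count of 0 among the members is near the background and tells little on its own. DESeq2 also called 0 members, against 0.0459% of gene sums, 0.0137% of promoter sums and 0.0188% of the 85212 regions to which it gives an adjusted p. So did limma-voom, against 0.0459%, 0% and 0.00845%. At an unadjusted p under 0.05 DESeq2 reached 0 of 35 member gene sums, 1 of 30 promoter sums and 5 of 209 regions, against 2.48%, 2.65% and 3.67% of all features. The counts of limma-voom were 0, 1 and 6, against 3.35%, 2.81% and 2.76%.

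The looser counts of the members were near or below the shares of the table. At an unadjusted p under 0.05 by edgeR, 0 of 35 gene sums, 1 of 30 promoter sums, 0 of 28 sums of other classes and 5 of 209 regions were reached, against 3.58%, 3.84%, 3.64% and 3.84% of all features tested. Genotypes that did not overlap were seen in 1 gene sum, 1 promoter sum, 2 sums of other classes and 20 regions, against 8.5%, 9.18%, 8.42% and 9.6% of all features. The gene sum was Tdrd7, higher in the knockout. The sums of other classes were Tdrd7, higher, and Piwil4, lower. Of the 20 regions 7 were higher and 13 lower in the knockout, beside 6885 higher and 7882 lower over the whole table. In the authors' deposited table none of the 259 member regions had an adjusted p under 0.05, which 35 of them lack, against 13 regions or 0.00796% of those with one. An unadjusted p under 0.05 in the authors' deposited table was given to 9 of the 259, against 7924 or 3.91% of all 202553 regions.

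Added together, the promoter levels of the 32 members were nearly the same in every library. The sum was 337, 335 and 337 CPM in the wild type (mean 336 ± 1.34 SD, n = 3) and 348, 325 and 324 CPM in the knockout (332 ± 13.3 SD, n = 3), a log2 ratio of -0.02. Knockout replicate 4 lay above the wild-type libraries and the other 2 below them. The sums of the other classes had the same log2 ratio, -0.02, from 968 ± 40.2 CPM to 956 ± 50.05 CPM. The median log2 change was -0.02 over the member gene sums and -0.06 over the promoter sums, against 0.00 and 0.05 over all genes tested. For gene sums 15 members were above 0 and 20 below, and for promoter sums 11 were above and 19 below.

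**Figure D5:**
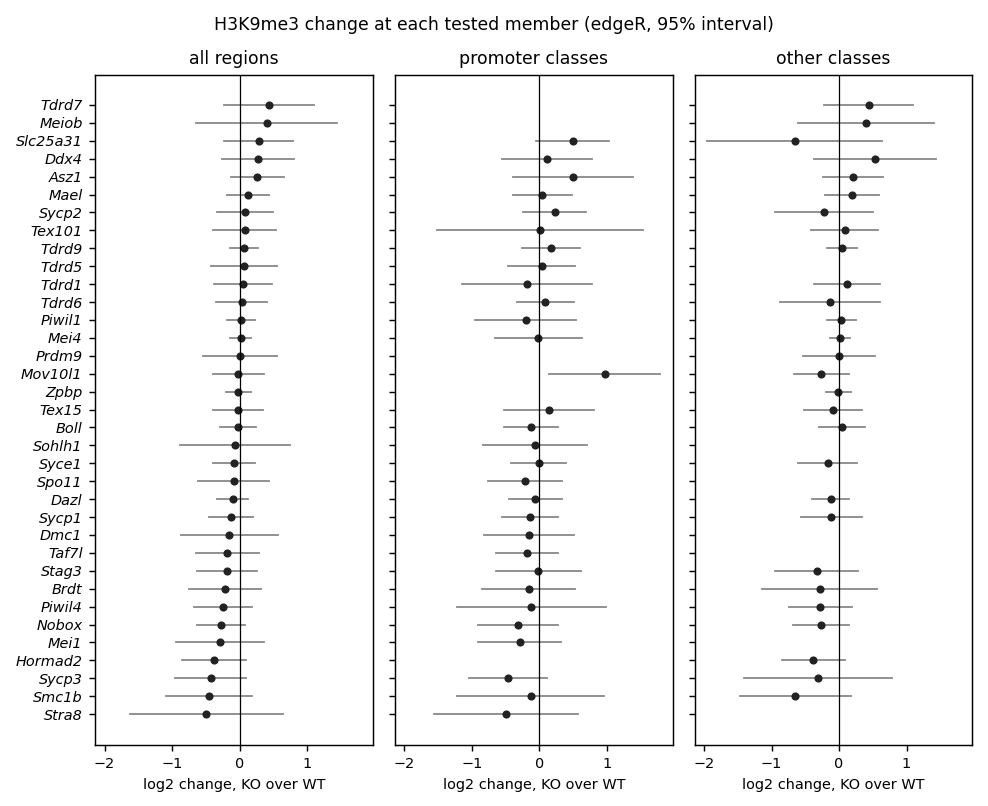
log2 change of H3K9me3, knockout over wild type, for each member tested, from edgeR, for the sum of all regions, of the promoter classes and of the other classes. Points are estimates and lines 95% intervals from 3 libraries per genotype. Points lie on both sides of 0 in each panel, and the promoter sum of Mov10l1, at 0.97, is the only value whose interval leaves out 0.

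The intervals give the size of change that the libraries could have hidden. The 95% interval of the change stayed within 2-fold in either direction for 31 of the 35 gene sums, the exceptions being Smc1b, Tdrd7, Meiob and Stra8. It did so for 21 of 30 promoter sums and for 21 of 28 sums of other classes. For Dazl the promoter sum changed by a log2 of -0.06 (95% interval -0.45 to 0.33), and for Syce1 by -0.01 (-0.42 to 0.40). For Sycp1 it was -0.14 (-0.55 to 0.28) and for Mael 0.05 (-0.39 to 0.48). A change of 2-fold or more at these 4 promoters lies outside the interval, as does any smaller change beyond its ends. Changes within the interval were not resolved.

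Mov10l1 had the smallest unadjusted p of the promoter sums. Its level was 3.72 ± 0.46 CPM (SD, n = 3) in the wild type and 7.30 ± 1.02 CPM (n = 3) in the knockout, from 19, 18 and 15 counts against 36, 35 and 27. The log2 change was 0.97 with a standard error of 0.42, and the edgeR p of 0.0209 became 0.998 after adjustment over all promoter sums. Leaving out 1 library at a time kept the log2 change between 0.86 and 1.08, with an unadjusted edgeR p between 0.0161 and 0.0694. As the genotypes did not overlap at this gene, picked for its small p, the direction was set to stay and adds no support. The other regions of Mov10l1 went the opposite way, at 23.3 ± 3.45 CPM in the wild type and 19.3 ± 4.63 CPM in the knockout, a log2 change of -0.27 ± 0.21 (SE) that did not pass either. Over the whole gene the log2 change was -0.02.

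Slc25a31 and Sycp3 followed among the promoter sums. Slc25a31 had 9.39 ± 2.68 CPM (SD, n = 3) in the wild type and 13.2 ± 2.71 CPM in the knockout, a log2 change of 0.49 ± 0.28 (SE). Sycp3 had 11.6 ± 2.11 CPM and 8.37 ± 4.25 CPM, a log2 change of -0.47 ± 0.29 (SE). Neither passed, the adjusted p by edgeR being 0.998 for both, and the libraries of the genotypes overlapped at both genes.

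The 6 gene sums with the smallest p were Sycp3, Hormad2, Nobox, Smc1b, Asz1 and Tdrd7, and none reached an unadjusted p of 0.05. For Sycp3 the sums were 17.5, 11.1 and 18.1 CPM in the wild type and 9.59, 15.4 and 9.74 CPM in the knockout, a log2 change of -0.43 ± 0.26 (SE). Hormad2 had 22.0, 19.4 and 13.0 CPM in the wild type and 12.9, 12.5 and 16.3 CPM in the knockout, a change of -0.38 ± 0.24. The values of both genes overlapped between genotypes. Nobox had 33.1, 33.7 and 33.0 CPM in the wild type and 21.8, 24.2 and 36.2 CPM in the knockout, a change of -0.28 ± 0.18, with knockout replicate 7 above all wild-type libraries. Smc1b had 7.04, 13.5 and 11.7 CPM in the wild type and 6.76, 7.47 and 9.29 CPM in the knockout, a change of -0.45 ± 0.32. Asz1 had 23.7, 18.9 and 17.9 CPM in the wild type and 24.9, 24.9 and 22.9 CPM in the knockout, a change of 0.26 ± 0.20, and Tdrd7 8.32, 6.09 and 7.02 CPM in the wild type and 10.7, 9.51 and 8.83 CPM in the knockout, a change of 0.44 ± 0.33. All 6 had an edgeR adjusted p of 0.9996. In Tdrd7 every knockout library lay above every wild-type library, and the genotypes did not overlap in 8.5% of all gene sums tested.

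Of single regions, the 6 with the smallest p included 3 at Mei4, in both directions. The region chr9:81826963-81827471 of Mei4, intergenic, had 7.95 ± 2.13 CPM (SD, n = 3) in the wild type and 3.87 ± 1.59 CPM in the knockout, and chr9:81812167-81812373 had 3.58 ± 0.54 CPM and 1.36 ± 1.36 CPM. The intron region chr9:81897537-81898217 was higher in the knockout, at 10.8 ± 2.20 CPM against 7.35 ± 2.54 CPM. The other 3 were the Mov10l1 start, an intron region of Hormad2 at chr11:4355896-4356846 that was lower in the knockout, and an intron region of Tdrd9 at chr12:112013596-112013771 that was higher. The edgeR adjusted p was 0.998 for each of the 6. Summed over its 71 regions Mei4 had 321, 290 and 259 CPM in the wild type and 315, 274 and 289 CPM in the knockout, and its genotypes overlapped.

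The lists set beside the members did not pass either. Of the other germline genes 34 were tested by gene sums and 28 by promoter sums, and of the muscle fibre genes 11 and 3. In each, 0 passed an adjusted p of 0.05 by edgeR, against 0.0393% of all gene sums and 0.0137% of all promoter sums. Their median log2 changes were 0.01 and 0.06 for the other germline genes and 0.04 and -0.03 for the muscle fibre genes. At an unadjusted p under 0.05 by edgeR, 1 of the 11 muscle fibre gene sums was reached and 0 of the other 3 sets. The shares over all features were 3.58% of gene sums and 3.84% of promoter sums.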

How the data were processed

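H3K9me3 was measured by CUT&Tag in 6 libraries, grouped by the genotype labels. Per the submitters' processing notes the authors worked on GRCm38 with BWA, Trimmomatic, bedtools, MACS2, deepTools and DESeq2 1.6.3. The sources used here do not give the settings, any pooling of libraries for region calling, or the base that positions count from. Positions are printed as deposited. The deposited count of each region in each library is raw, per the file headers. The deposited normalized signal, log2 fold change, score and distance to a start are the authors', and of these the classes and distances were used. The deposited p-value, raw or adjusted, served only for the counts credited to the authors' table. No spike-in is named, so a uniform change of the mark is scaled away.

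Counts were tested per region and summed per gene symbol over all, promoter and other classes, with edgeR 4.0.16 in R 4.3.3: filterByExpr (minimum count 10, minimum total 15), TMM, and a robust quasi-likelihood fit. Adjusted p-values cover all features tested at a level, with a threshold of 0.05. CPM values use the scaling of the gene sums. Library totals of 4324444 to 4756133 counts gave a median standard error of 0.22 (log2) for a member gene sum and 0.32 for a promoter sum. P-values measure the spread between libraries, which the labels do not tie to separate mice. The fit pools that spread over features, so the standard error of a gene need not follow its own libraries. The promoter sum of Brdt had SDs of 0.76 CPM (wild type) and 0.32 CPM (knockout) and a standard error of 0.35 (log2). For Mei4 these were 1.54 CPM, 2.72 CPM and 0.33. RefSeq tables of GRCm38.p6 gave starts, spans and sequences. The script was tested on simulated data.

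The members, the 2 comparison lists (47 other germline genes, 20 muscle fibre genes) and the alternatives were chosen with earlier results of these data known. All 40 members are accounted for. Values in every library are given for members with a promoter region and for the 6 with the smallest p of the gene sums, and single regions for promoters, strong regions inside genes and the 6 with the smallest p. Alternatives were RLE scaling, library totals, DESeq2 1.42.0, limma-voom (limma 3.58.1), no filter or a mean count of 20, an adjusted p of 0.10, no intergenic regions, other promoter definitions, and leaving out each library.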

Additional observations from a re-analysis of the deposited data

How the results depend on the processing

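No member passed an adjusted p of 0.05 by gene sum, promoter sum or single region under any of the alternatives run. The smallest adjusted p of a member was 0.682, for a promoter sum by edgeR without Prr14-KO replicate 4. The counts over the whole table moved more. Regions past the threshold went from 20 to 13 with limma-voom and ranged from 15 to 19 when each library was left out. Gene sums past it numbered 6, and 6 to 18 with each library left out, the 18 coming without Prr14-KO replicate 4. Promoter sums past it went from 1 to 2 at an adjusted p of 0.10 and to 0 with limma-voom, and ranged from 1 to 2 with each library left out. The median log2 change of the member gene sums was -0.02, and -0.10 (without Prr14-KO replicate 4) to 0.020 (without Prr14-KO replicate 7) with each library left out. Members with a promoter region numbered 32, and 29 within 1 kb and 27 with a mean count of 10. Around RefSeq starts they numbered 26 of the 40 when the starts of RefSeq gene spans were included. With only the starts that have a promoter sequence they were 24 of 35. The sign of the change differed from the main one in 38 of 450 gene sum values and 32 of 355 promoter values, each in 16 members whose main change was within 0.65 standard errors of 0. Alternatives for member promoter sums were chosen after seeing the data. No paired analysis was possible because the genotypes share only 1 replicate number. A median of 37.7 counts per promoter sum and library limit what can be resolved.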
